A study of Mus musculus with 42 samples.

Results

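Hippocampal microglia of germ-free 5xFAD mice given acetate were compared with those of germ-free 5xFAD mice not given it. The members were the 7 hippocampus libraries whose labels name both the 5xFAD genotype and the germ-free state, of 42 libraries in the whole series. They fall into a germ-free plus acetate group of 4 animals (GFA_FAD_519, GFA_FAD_520, GFA_FAD_521 and GFA_FAD_522) and a germ-free group of 3 animals (GF_FAD_526, GF_FAD_527 and GF_FAD_531), and values are given in these orders. All 7 mice were 16 weeks old, on a C57BL/6 background and raised without microbes, and the treated group received acetate in the drinking water. The treatment protocol gives 8 weeks of acetate for germ-free wild-type and 5xFAD mice and 4 weeks for a further germ-free group that it does not place, so 8 weeks was taken here. 5xFAD mice carry human transgenes with mutations of familial Alzheimer's disease, driven by the Thy1 promoter, which is active in neurons, and deposit amyloid. Microglia were sorted as CD11b+ CD45lo cells after a density gradient, and their RNA was sequenced in bulk. Other hippocampal groups of the same age and background served beside these results: 5xFAD mice with a specific-pathogen-free (SPF) flora (n = 4), germ-free wild type (n = 3), germ-free wild type with acetate (n = 4) and SPF wild type (n = 4).

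Acetate is a short-chain fatty acid made by gut bacteria and is largely missing in germ-free animals. Cells turn it into acetyl-CoA, which enters the tricarboxylic acid cycle, lipid synthesis and histone acetylation. Microglia are the resident macrophages of the brain. Around amyloid they lower homeostatic genes such as P2ry12 and Tmem119 and, through the receptor Trem2, raise a disease-associated set that includes Apoe, Cst7, Clec7a, Lpl and Itgax.

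Total counts were 16382823 to 22532410 in the germ-free and 18758109 to 19959648 in the acetate libraries. The sort and the genotype were visible in the counts. The 8 microglial markers summed to 28775 to 29515 CPM (counts scaled to the library total, with the trimmed mean of M-values, TMM) in germ-free and 34500 to 35787 CPM in acetate libraries, so these groups did not overlap, and Olfml3 is one of the 8. Cst7, a cysteine protease inhibitor of plaque-associated microglia, was at 356 to 790 CPM in the 7 libraries and at 4.33 to 11.6 CPM in germ-free wild type with or without acetate. Markers of neutrophils, of T, NK and B cells and of neurons each summed to at most 5.17 CPM. Border macrophage markers summed to 3.89 to 10.6 CPM in germ-free and 10.96 to 30.97 CPM in acetate libraries, and Lyve1, Cd163, Ms4a7, F13a1 and Cbr2 were at 0 in at least 1 of the 7. Their part in the results was not tested. Outside the 7, the wild-type libraries GFA_WT_518 and GF_WT_530 stood apart in a principal component analysis, and the libraries SPF4_WT and SPF_FAD_2142 held only 5862938 and 5743891 counts. The library labelled SPF_FAD_2152 had Cst7 at 13.3 CPM, against 376 to 512 CPM in the other 3 of its group and 10.1 to 22.7 CPM in SPF wild type.

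Few genes passed the test, and most that did were lower with acetate. Olfml3 and Marcks were among the genes higher in the acetate group, and Ppp1r21, Gpd1, Rnf169, Rbm26, Chka, Lifr, Rcan1, Pik3r1, Filip1l, Klf13 and Irf2 were lower. These are 3 higher (0.0176%) and 11 lower (0.0645%), 0.082% in either direction, of 17063 genes tested by edgeR's quasi-likelihood test on all 22 hippocampus libraries, at a Benjamini-Hochberg adjusted p under 0.05. This is the 22-library fit, which gives every value below where no other fit is named. A log2 difference below is always acetate minus germ-free, with its standard error (SE). At an unadjusted p under 0.05 there were 719 genes higher and 567 lower, and the median log2 difference of all genes was 0.01. In each of the 14 genes no acetate library overlapped a germ-free library, where 5.98% of all genes had every acetate library above every germ-free library and 5.24% had every one below. The 14 were chosen by a test that used these same libraries, so their separation is not further evidence. Of 4495 genes with a mean of at least 50 CPM in either group, 11.2% were above and 8.01% below in this way. A fit on the 7 libraries alone called 39 higher (0.256%) and 82 lower (0.539%) of 15208 genes, 0.796% in either direction, the 14 among them. A fit on all 11 5xFAD libraries, SPF included, called 4 higher (0.0249%) and 22 lower (0.137%) of 16060 genes. It kept 11 of the 14 and lost Marcks, Klf13 and Irf2. Leaving out 1 library of the 7 at a time gave 0 to 14 higher and 1 to 24 lower, and left 2 of the 14 called without GF_FAD_527, GF_FAD_531 or GFA_FAD_519, 3 without GFA_FAD_522, 4 without GFA_FAD_520, 6 without GF_FAD_526 and 13 without GFA_FAD_521.

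Olfml3, a secreted glycoprotein that marks homeostatic microglia, rose from 1742, 1591 and 1644 CPM in the germ-free libraries to 2944, 2640, 2269 and 2593 CPM in the acetate libraries, by a log2 difference of 0.65 (SE 0.10, adjusted p = 0.0089). The SPF 5xFAD mean was 2809 CPM, inside the acetate range. Marcks, a protein kinase C substrate that links the membrane to actin, rose from 895, 877 and 854 CPM to 1161, 1201, 1193 and 1370 CPM (log2 difference 0.49, SE 0.10, adjusted p = 0.043). All its acetate values lay above the germ-free values, which were close together. Of the 5 genes with the smallest p in this direction, Evi2a and Ptpre did not pass in the 22-library fit: Evi2a, a membrane protein, had a log2 difference of 0.75 and the receptor phosphatase Ptpre one of 0.51 (adjusted p = 0.059 for each). Both were called by DESeq2, by limma-voom and in the 7-library edgeR fit (adjusted p = 0.015 and 0.039).

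**Figure D1:**
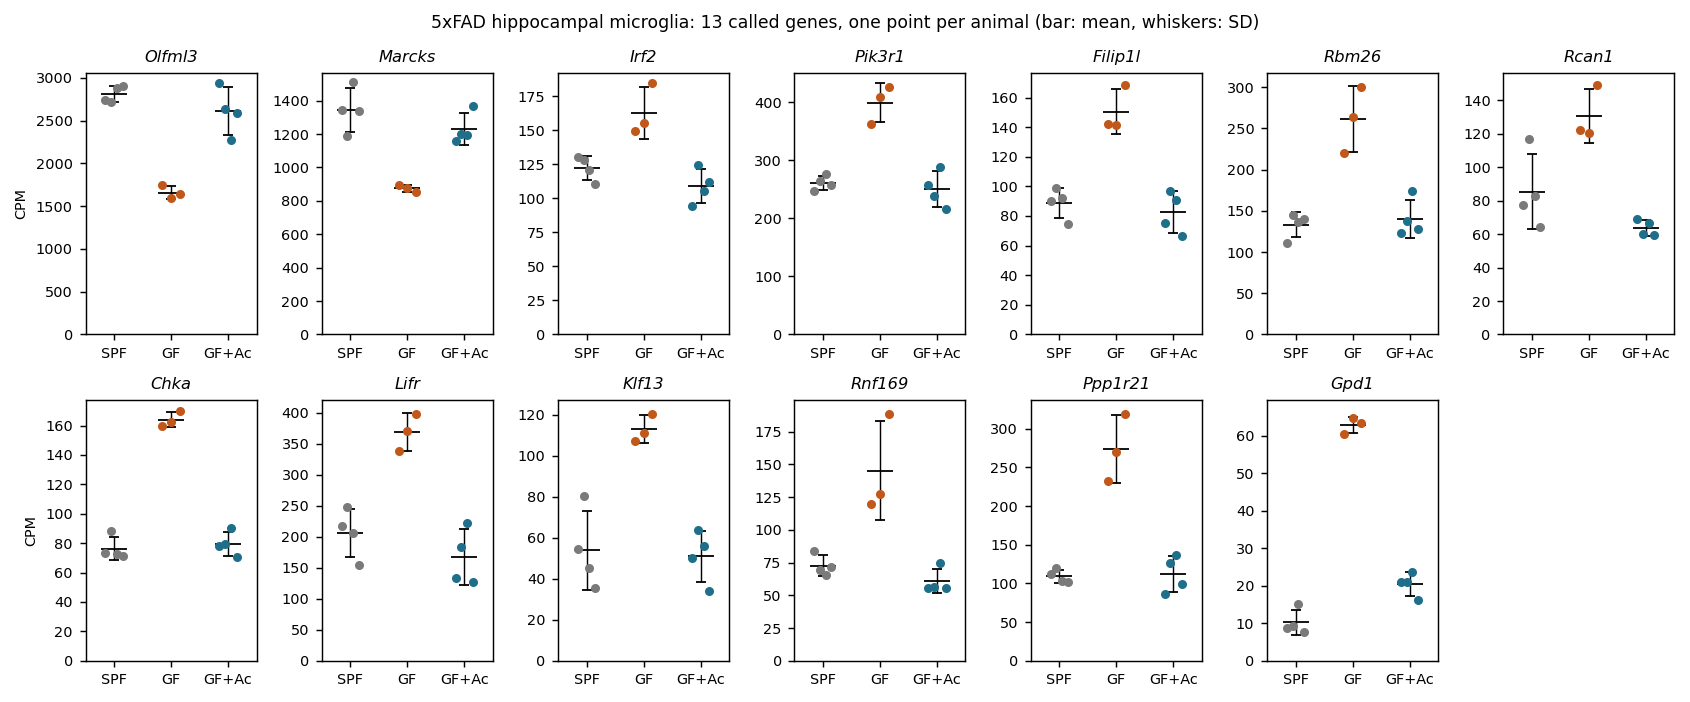
Expression (CPM, linear axis from 0) of 13 called genes in 5xFAD hippocampal microglia, 1 point per animal, with the mean (bar) and SD (whiskers) of the SPF (n = 4), germ-free (GF, n = 3) and germ-free plus acetate (GF+Ac, n = 4) groups. Olfml3 and Marcks are higher and the other 11 lower in every acetate animal than in every germ-free animal. The genes were chosen by a test that used the same libraries.

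Among the genes that fell were 2 metabolic enzymes. Gpd1, the cytosolic glycerol-3-phosphate dehydrogenase that joins glycolysis to glycerolipid synthesis, stood at 60.5, 64.7 and 63.4 CPM in germ-free and at 21.04, 20.9, 23.8 and 16.2 CPM in acetate libraries. This 3.07-fold fall (log2 difference -1.62, SE 0.26, adjusted p = 0.0089) is the largest of the 14, and the SPF 5xFAD libraries were lower still, with a mean of 10.2 CPM. Chka, choline kinase alpha, which starts phosphatidylcholine synthesis, fell from 160, 162 and 170 CPM to 78.1, 79.3, 90.5 and 70.7 CPM (log2 difference -1.04, SE 0.18, adjusted p = 0.017). Both enzymes varied little among the germ-free animals.

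Lifr, the receptor for leukaemia inhibitory factor, went from 338, 370 and 398 CPM to 134, 184, 223 and 127 CPM (log2 difference -1.14, SE 0.21, adjusted p = 0.036). Pik3r1, the regulatory subunit of phosphoinositide 3-kinase that acts below Trem2 and cytokine receptors, went from 362, 409 and 426 CPM to 258, 238, 289 and 216 CPM (log2 difference -0.67, SE 0.13, adjusted p = 0.043). Rcan1, an inhibitor of the phosphatase calcineurin, went from 122, 120 and 149 CPM to 68.8, 60.0, 66.4 and 59.4 CPM (log2 difference -1.04, SE 0.19, adjusted p = 0.037). For all 3 the highest acetate animal stayed well below the lowest germ-free animal, and GFA_FAD_521 was the highest acetate animal for Lifr and Pik3r1.

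Among regulators of transcription, Klf13 stood at 107, 111 and 121 CPM in germ-free and at 50.1, 63.7, 56.0 and 33.9 CPM in acetate libraries (log2 difference -1.15, SE 0.22, adjusted p = 0.043). Irf2, an interferon regulatory factor that can repress interferon-driven genes, fell from 149, 155 and 185 CPM to 94.7, 124, 105 and 112 CPM (log2 difference -0.58, SE 0.11, adjusted p = 0.043), and this is the smallest fall of the 11. The highest acetate animal, GFA_FAD_520, was below the lowest germ-free animal.

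Ppp1r21, a protein phosphatase 1 regulatory subunit of the endosomal pathway, had the smallest p of all genes. It stood at 232, 270 and 319 CPM in germ-free and at 86.6, 126, 137 and 99.5 CPM in acetate libraries, 2.44-fold lower (log2 difference -1.29, SE 0.16, adjusted p = 0.00053). GF_FAD_531 was the highest animal for this gene, as it was for Rnf169, a ubiquitin-binding protein of the DNA damage response, which stood at 120, 127 and 188 CPM against 55.7, 56.6, 74.8 and 55.9 CPM (log2 difference -1.26, SE 0.20, adjusted p = 0.0089). Rbm26, an RNA-binding protein, fell from 221, 264 and 300 CPM to 123, 138, 174 and 127 CPM (log2 difference -0.90, SE 0.15, adjusted p = 0.012). Filip1l, a relative of the filamin-binding protein FILIP1, fell from 142, 141 and 168 CPM to 75.6, 97.0, 91.0 and 66.4 CPM (log2 difference -0.87, SE 0.17, adjusted p = 0.043).

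The SPF 5xFAD libraries were set beside both groups; each of these comparisons shares either the germ-free or the acetate libraries with the one above, so the values are only given side by side. Germ-free against SPF called 155 genes higher (0.908%) and 156 lower (0.914%), 1.82% in either direction, and 12 of the 14 were called there, with Rcan1 (adjusted p = 0.12) and Irf2 (adjusted p = 0.062) the exceptions. Gpd1 differed by log2 2.62 and Ppp1r21 by 1.33 between germ-free and SPF, and Olfml3 by -0.76. Without the library labelled SPF_FAD_2152, 11 of the 14 were called, and Lifr was lost (adjusted p = 0.069). Acetate against SPF called 8 genes higher (0.0469%) and 1 lower (0.00586%), 0.0527% in either direction, and none of the 14 was called in that test, for which edgeR's smallest adjusted p among them was 0.16 (0.054 without SPF_FAD_2152). Gpd1 had a log2 difference of 0.997 there, with its acetate mean between the SPF and the germ-free means, and a p that misses the threshold does not show that the acetate and SPF levels were alike.

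The wild-type comparison shares no library with the 5xFAD comparison, although both came from 1 fit with a common estimate of spread. There 39 genes were higher (0.229%) and 45 lower (0.264%), and all 14 genes differed in the same direction as in 5xFAD mice. Of the 14, 9 were called in wild type (among them Olfml3, Marcks, Ppp1r21, Rnf169, Rbm26, Lifr, Pik3r1 and Klf13), which is 64.3% of the 14 and 10.7% of the 84 wild-type calls. In 9 of the 14 the wild-type groups did not overlap, against 4.2% of all genes above and 4.55% below. Olfml3 and Marcks had like sizes in both genotypes, with wild-type log2 differences of 0.66 and 0.45. Gpd1 showed the widest gap, with -0.89 (SE 0.26, adjusted p = 0.12) in wild type. Its wild-type values were 37.9, 20.3 and 35.3 CPM in germ-free and 12.3, 16.1, 22.6 and 16.3 CPM in acetate libraries, so those groups overlapped.

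**Figure D2:**
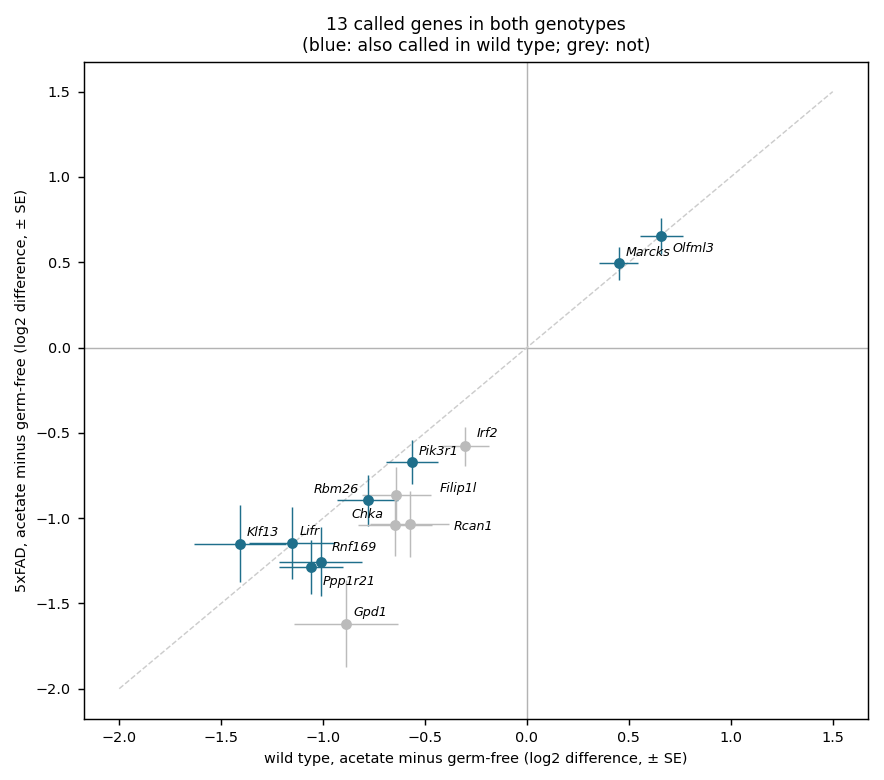
Log2 difference, acetate minus germ-free, of 13 called genes in wild type (horizontal axis) and 5xFAD (vertical axis) hippocampal microglia, with SE bars; genes also called in wild type are blue, the others grey. All 13 lie in the quadrants of equal sign, and the dashed line marks equal size.

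The difference between the genotypes was tested itself, as an interaction. No gene passed in either direction (0%) by edgeR, where 905 had an unadjusted p under 0.05 and the smallest adjusted p was 0.13. DESeq2 called 6 genes, with 1107 at an unadjusted p under 0.05. Among the 14 no interaction had an unadjusted p under 0.05. The 45 genes lower in wild type had a median log2 difference of -0.85 there and -0.66 in 5xFAD, where 41 kept the sign, 6 were called and 33 had groups that did not overlap. The 39 higher in wild type had medians of 0.64 and 0.32, and 36 kept the sign, 3 were called and 22 did not overlap. Over all genes the 5xFAD comparison called 0.0645% lower and 0.0176% higher, and 5.24% were below and 5.98% above without overlap. By edgeR, 12 of the 45 and 20 of the 39 had an unadjusted interaction p under 0.05, where 905 of all 17063 genes did. The 45 and the 39 were chosen by their wild-type values. Nothing is read from the size of the wild-type medians beside the 5xFAD ones, nor from these interaction counts. A wild-type edgeR fit on its own 7 libraries called 0 genes, with 567 higher and 506 lower at an unadjusted p under 0.05, while DESeq2 on all 22 libraries called 218 higher and 180 lower. Without GFA_WT_518 and GF_WT_530, 9 of the 14 were again called in wild type.

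A list of 31 tested genes, named here for glucocorticoid response, had the lowest median of 28 pathway and state lists, a log2 difference of -0.97, where all genes had 0.01. Some of its members (Pik3ip1, Hif3a, Slc2a3, Gpr65, Cd300lf, Ston1, Jdp2 and Plet1os) were put in after earlier results of these data. The list's rank, median and counts include them and are not independent evidence of its direction. No value is given without them. No member passed in the 22-library edgeR fit, where 18 were lower and 2 higher at an unadjusted p under 0.05 (567 and 719 of all 17063 genes). DESeq2 called 5 lower, limma-voom 14 lower and 1 higher, and the 7-library edgeR fit 17 lower and 1 higher. Over all genes DESeq2 called 88 lower and 65 higher, limma-voom 129 and 56, and the 7-library fit 82 (0.539%) and 39 (0.256%). In the 7-library fit the member called higher was Cd163, which is also on the border macrophage list. In 20 members every acetate library was below every germ-free one, and in 3 (Cd163, Il1r2 and Tgfbr2) every one was above. Over all genes 5.24% were below and 5.98% above. Il1r2 reached at most 1.55 CPM, and Angptl4 (log2 difference 1.22) and Cdkn1a (0.98) had positive values with groups that overlapped. Fkbp5, a co-chaperone of the glucocorticoid receptor, stood at 787, 955 and 1057 CPM in germ-free and at 184, 307, 332 and 111 CPM in acetate libraries (log2 difference -1.998, SE 0.52, adjusted p = 0.19). The groups did not overlap, and the acetate animals also differed among themselves. Tsc22d3, the leucine zipper protein GILZ, stood at 341, 380 and 492 CPM against 61.6, 113, 129 and 36.7 CPM (log2 difference -2.25, SE 0.51, adjusted p = 0.10). Zbtb16, a zinc finger repressor, stood at 98.3, 157 and 198 CPM against 6.08, 19.9, 14.6 and 4.96 CPM (log2 difference -3.73, SE 0.90, adjusted p = 0.13). In these 3 genes GFA_FAD_522 was the lowest acetate animal, and GFA_FAD_520 and GFA_FAD_521 were the highest.

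The clock gene Per1 stood at 99.5, 83.8 and 102 CPM against 30.7, 35.1, 48.9 and 11.3 CPM (log2 difference -1.60, adjusted p = 0.19), and Ddit4, an inhibitor of the kinase mTORC1, at 36.9, 37.4 and 58.8 CPM against 3.40, 8.47, 8.09 and 0.694 CPM (log2 difference -3.10, adjusted p = 0.34). Nfkbia, the NF-kB inhibitor IkB-alpha, missed the threshold narrowly. Its values were 200, 188 and 213 CPM against 106, 95.9, 94.9 and 101 CPM (log2 difference -1.01, SE 0.21, adjusted p = 0.059), with little spread in either group. Pik3ip1, an inhibitor of phosphoinositide 3-kinase, had a log2 difference of -2.18 (adjusted p = 0.059). The receptor gene itself, Nr3c1, was at 210, 229 and 217 CPM against 201, 221, 251 and 231 CPM (log2 difference 0.05, SE 0.10), and its groups overlapped. Members without a large difference were Cebpd (-0.05), Mt1 (-0.14) and Tle3 (-0.09). Cd163, a scavenger receptor that is also a border macrophage marker, had no counts in the 3 germ-free libraries, where 3 counts would be 0.128 to 0.183 CPM, and 0.657, 1.65, 5.96 and 1.01 CPM in the acetate libraries.

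The 17 called lower in the 7-library fit included Fkbp5, Tsc22d3, Zbtb16, Ddit4, Nfkbia, Sgk1 and Dusp1. Also among the 17 were Hif3a, Plet1os, Pik3ip1, Cd300lf, Jdp2, Gpr65 and Ston1, which were put in after earlier results of these data. Per1 missed the threshold there (adjusted p = 0.053 by edgeR) and with DESeq2 (0.066). In wild type the list's median was -1.08, with 3 called lower (Per1, Nfkbia and Pik3ip1). All genes had a wild-type median of 0.006, and 0.264% were called lower. Pik3ip1 is among the members put in after earlier results of these data, so neither the list's median nor the call of Pik3ip1 is independent evidence. Germ-free against SPF called 14 members higher and 1 lower, from the same germ-free libraries, where 0.908% and 0.914% of all genes were called. Zbtb16 averaged 4.41 CPM in SPF 5xFAD mice and Fkbp5 172 CPM.

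**Figure D3:**
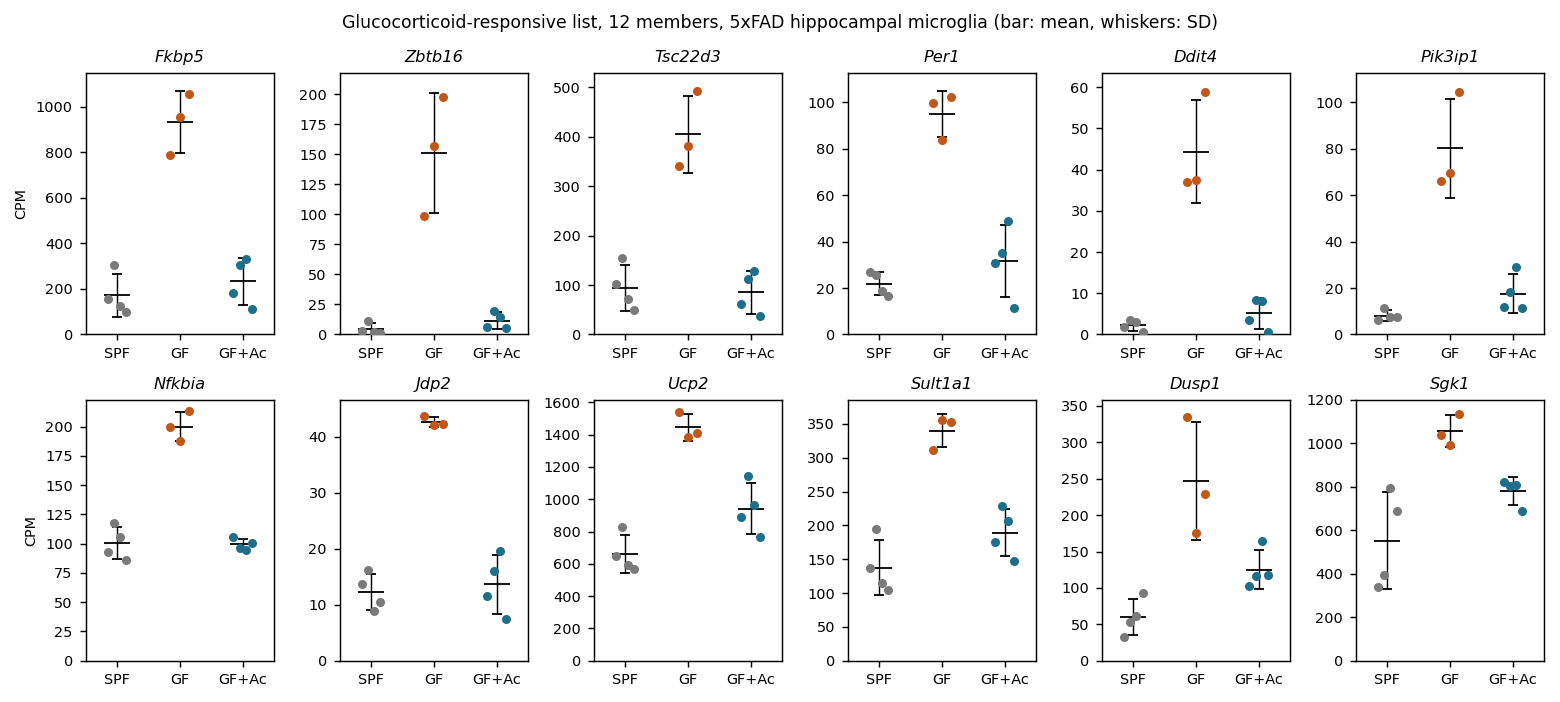
Expression (CPM, linear axis from 0) of 12 members of the glucocorticoid-responsive list in 5xFAD hippocampal microglia, 1 point per animal, with the mean (bar) and SD (whiskers) of the SPF (n = 4), germ-free (GF, n = 3) and germ-free plus acetate (GF+Ac, n = 4) groups. In each panel all acetate animals lie below all germ-free animals, none of the 12 passed in the 22-library edgeR fit, and 11 of them were called lower in the fit on the 7 libraries. The 12 were chosen after their values were seen and all fall. Of the 31 members tested, 3 were above in every acetate animal (Cd163, Il1r2 and Tgfbr2) and are not drawn.

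Because 20 list members were lower in every acetate animal, promoters of all 31 tested members and of the 14 called genes were searched. Some of the 31 were put in after earlier results of these data. Both strands were read, over 250 bases before the RefSeq start site (build GRCm38.p6). The letters sought were AGAACA, the core of the glucocorticoid receptor element, and the E-box CACGTG bound by clock factors. A longer string that contains the core, AGAACA followed after 3 bases of any kind by TGTTC, was sought too. A promoter was found for 26 of the 31 list genes and 11 of the 14 called genes. A gene counted once, if any of its promoters held the letters. AGAACA was in 5 of the 26 (Cd163, Cd300lf, Sgk1, Sult1a1 and Tsc22d3, 19.2%) and in 0 of the 11. Of 27025 genes with promoters of the same length, 18.2% held it. The longer string was in 1 of the 26, Sgk1, and in 0.0333% of all these genes. CACGTG was in 6 of the 26 (Dusp1, Fkbp5, Il1r2, Per1, Sgk1 and Tle3) and in 1 of the 11 (Rcan1), against 6.86% of all these genes. Cd163 and Il1r2 were above, not below, in every acetate animal. A match describes these letters only and is not a binding site. The following stretches are given 5′ to 3′ on the gene's strand, with the match in capitals, for 4 genes whose groups did not overlap: Sgk1, a kinase, at chr10:21993679-21993737 (plus strand), Per1 at chr11:69098761-69098810 (plus strand), Fkbp5 at chr17:28486291-28486340 (minus strand) and Tsc22d3 at chrX:140600680-140600729 (minus strand), where the core is read on the other strand. In Sgk1 the longer string matches on both strands, shifted by 1 base, and the capitals span both matches.
Sgk1: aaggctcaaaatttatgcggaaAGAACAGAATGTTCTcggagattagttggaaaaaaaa
Per1: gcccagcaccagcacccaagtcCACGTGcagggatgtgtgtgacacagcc
Fkbp5: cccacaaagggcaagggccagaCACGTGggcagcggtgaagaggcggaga
Tsc22d3: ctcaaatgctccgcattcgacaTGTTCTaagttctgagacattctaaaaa

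Most homeostatic microglial genes had small positive differences with acetate. Of 31 tested, 2 were called higher, Olfml3 among them, 0 lower and 29 did not pass, the median log2 difference was 0.17, and 15 had every acetate library above every germ-free one. In 2 every one was below. Over all genes 5.98% were above and 5.24% below, and 11.2% and 8.01% of those with at least 50 CPM in either group. P2ry12, the ADP receptor of resting microglia, stood at 3845, 3732 and 4136 CPM in germ-free and at 4742, 4483, 4584 and 4962 CPM in acetate libraries (log2 difference 0.27, SE 0.11, adjusted p = 0.58). Cx3cr1, the fractalkine receptor, stood at 5602, 5872 and 5876 CPM against 7089, 6942, 6970 and 6924 CPM (log2 difference 0.27, adjusted p = 0.48). The groups of both genes did not overlap, although neither passed. Log2 differences were 0.58 for Fcrls (adjusted p = 0.43), 0.17 for Tmem119 (0.85) and 0.17 for the transcription factor Sall1 (0.91). In wild type 7 of the 31 were called higher and 1 lower, where 0.229% and 0.264% of all genes were. The 7-library fit called 5 higher, among them P2ry13, Fcrls, Olfml3 and Lpcat2, where it called 0.256% of all its genes higher.

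Disease-associated genes were not called in either direction in the 22-library edgeR fit. Of 38 tested, 9 were higher and 0 lower at an unadjusted p under 0.05, 35 had a positive log2 difference, the median was 0.33, and 8 had every acetate library above every germ-free one. That last share was 5.98% over all genes and 11.2% of those with at least 50 CPM in either group. Of all 17063 genes tested, 719 were higher and 567 lower at an unadjusted p under 0.05 by edgeR, and 8769 had a positive log2 difference. Trem2 stood at 1582, 1490 and 1376 CPM in germ-free and at 2196, 2069, 1576 and 1932 CPM in acetate libraries (log2 difference 0.39, SE 0.12, adjusted p = 0.29). GFA_FAD_521 reached into the germ-free range. Its adaptor Tyrobp stood at 1752, 1485 and 1353 CPM against 2031, 2031, 1385 and 1944 CPM (0.27, adjusted p = 0.91). The lectin receptor Clec7a averaged 109 (SD 31.1, n = 3) and 202 (SD 76.3, n = 4) CPM, with a log2 difference of 0.90 (SE 0.77, adjusted p = 0.92). Apoe, the main lipid carrier, averaged 5587 (SD 1590) and 6056 (SD 1388) CPM (0.12, SE 0.49). Cst7 (0.39, SE 0.61), the lipase Lpl (0.75, SE 0.65), Axl (0.50, SE 0.51), Spp1 (1.21, SE 0.90), Csf1 (0.53, SE 0.49) and Itgax (0.10, SE 0.65) were not called either. The errors were smaller in the 7-library fit, at 0.26 for Clec7a, 0.20 for Apoe and 0.15 to 0.33 for these 6 genes. None of the 6 was called there (adjusted p = 0.15 to 0.92 by edgeR), nor were Clec7a (0.18) and Apoe (0.91). Among the 6, only Spp1 and Csf1 had groups that did not overlap. Cd9, a tetraspanin, stood at 1108, 955 and 846 CPM against 1430, 1647, 1202 and 1728 CPM (log2 difference 0.63, adjusted p = 0.20), with no overlap. In the 7-library fit Cd9, Cd52 and Ch25h were called higher, where 0.256% of all its genes were. Among 17 genes of Trem2 signalling, Pik3r1 was the only one called, and the median was 0.04.

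**Figure D4:**
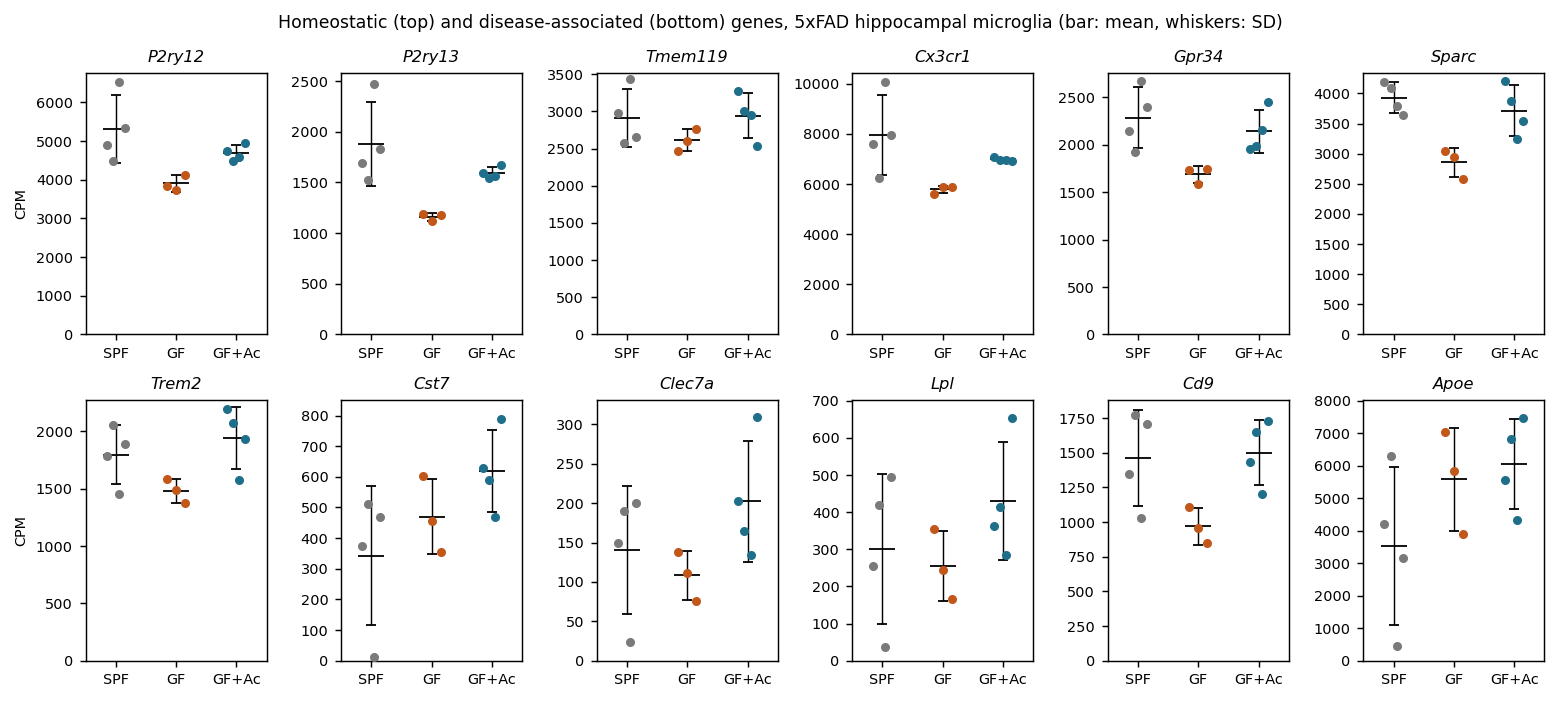
Expression (CPM, linear axis from 0) of 6 homeostatic genes (top row) and 6 disease-associated genes (bottom row) in 5xFAD hippocampal microglia, 1 point per animal, with mean (bar) and SD (whiskers) of the SPF (n = 4), germ-free (GF, n = 3) and germ-free plus acetate (GF+Ac, n = 4) groups. The low SPF point for Cst7, Clec7a, Lpl and Apoe is the library labelled SPF_FAD_2152; P2ry12, P2ry13, Cx3cr1, Gpr34, Sparc and Cd9 show no overlap between germ-free and acetate animals.

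Immune response lists held no gene called in the 22-library edgeR fit. All 31 interferon response genes tested had a positive log2 difference, where 8769 of all 17063 genes did, and their median was 0.59, but 1 had an unadjusted p under 0.05 and only 3 (Ifi27l2a, Ifitm3 and Oasl2) had groups that did not overlap. Ifitm3, an antiviral membrane protein, stood at 23.86, 34.7 and 24.5 CPM in germ-free and at 35.2, 40.4, 102 and 58.1 CPM in acetate libraries (log2 difference 1.09, SE 0.59, adjusted p = 0.74). Irf7 stood at 23.2, 42.2 and 17.3 CPM against 29.3, 29.8, 84.5 and 44.2 CPM. GFA_FAD_521 was the highest animal for both, and the list's median was 0.27 without it, 1.01 without GF_FAD_527 and 0.32 without GF_FAD_531. In wild type the median was -0.06. MHC class I genes had a median of 0.37 with 10 of 16 above in every animal and 1 below, and the immunoproteasome subunit Psmb8 stood at 125, 122 and 108 CPM against 172, 164, 144 and 188 CPM (0.49, adjusted p = 0.22). MHC class II genes had a median of 0.38 with 5 of 13 above, where 5.98% of all genes were above and 5.24% below. H2-Ab1, a class II chain, stood at 19.6, 19.8 and 16.0 CPM against 34.8, 73.7, 40.0 and 39.3 CPM (1.35, adjusted p = 0.56), and it and the invariant chain Cd74 were called higher in the 7-library fit. Border macrophages carry class II too, and their markers were higher in the same libraries, as given above, and their part was not tested.

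Among 33 inflammatory and NF-kB genes, 9 were above and 2 below in every animal (5.98% and 5.24% of all genes) and the median was 0.35. Icam1, an adhesion molecule, stood at 77.2, 83.1 and 85.2 CPM against 175, 127, 125 and 120 CPM (log2 difference 0.74, SE 0.16, adjusted p = 0.072). Tlr7, a sensor of single-stranded RNA, stood at 540, 583 and 737 CPM against 311, 377, 467 and 283 CPM (log2 difference -0.79, SE 0.17, adjusted p = 0.059). Neither passed in the 22-library fit, both were called in the 7-library fit (adjusted p = 0.037 and 0.044 by edgeR) along with Ccl4 and Nfkbia, and the groups of both were apart. Ncf1, a subunit of the phagocyte NADPH oxidase, was at 897, 932 and 947 CPM against 754, 721, 760 and 640 CPM (-0.37, SE 0.08, adjusted p = 0.072), while its list of 21 antioxidant and oxidase genes had a median of 0.17.

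Genes that handle acetate and energy had medians close to that of all genes or slightly above it. None of 15 acetate uptake and acetyl-CoA genes, 29 tricarboxylic acid cycle and pyruvate genes, 36 nuclear complex I subunits, 8 complex II genes, 37 genes of complexes III to V, 8 mitochondrially encoded genes or 30 histone acetylation genes was called, in a comparison that called 0.082% of all genes. DESeq2, limma-voom and the 7-library edgeR fit called none of them either. Their medians were 0.11, 0.12, 0.15, 0.05, 0.21, 0.08 and -0.04 in that order. Positive values were found in 33 of the 36 complex I and 36 of the 37 complex III to V genes, and in 8769 of all 17063 genes. The succinate dehydrogenase subunit Sdha stood at 301, 231 and 274 CPM in germ-free and at 265, 213, 286 and 287 CPM in acetate libraries (log2 difference -0.03, SE 0.11). Sdhb (0.24, SE 0.11, adjusted p = 0.65), Sdhc (0.21, SE 0.16) and Sdhd (0.13, SE 0.13) had small positive values. The acetyl-CoA synthetases Acss1 (0.11, SE 0.16) and Acss2 (-0.26, SE 0.58), the proton-pumping transhydrogenase Nnt (0.07, SE 0.17) and the deacetylase Hdac9 (0.01, SE 0.27) had errors larger than their values. Ep300, a histone acetyltransferase, was at 219, 262 and 287 CPM against 207, 199, 217 and 187 CPM (-0.34, adjusted p = 0.48). In glycolysis 7 of 24 genes were above in every animal and 2 below (5.98% and 5.24% of all genes), with a median of 0.23. Gapdh stood at 245, 208 and 180 CPM against 291, 337, 259 and 310 CPM (0.50, SE 0.14, adjusted p = 0.20).

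The lists that follow held no gene called in the 22-library edgeR fit. The 7-library edgeR fit called Sdf2l1 higher (adjusted p = 0.036) and Klf4 (0.023), Klf2 (0.038), Dusp1 (0.047), Cebpb (0.025) and Runx1 (0.044) lower among them. Over all 17063 genes 8769 were positive, and 5.98% were above and 5.24% below in every animal. Of those with at least 50 CPM in either group, 11.2% were above and 8.01% below. Ribosomal proteins had a median of 0.24 over 83 genes, many with near-identical copies that the counting could split, 79 of them positive and 12 above in every animal, and a median of -0.07 in wild type. Unfolded protein and heat shock genes had a median of 0.19, with 9 of 28 above in every animal, and its smallest p was that of the ER protein Sdf2l1 at 122, 104 and 95.7 CPM against 174, 177, 142 and 200 CPM (0.69, adjusted p = 0.29). Phagocytosis and lysosome genes had 7 of 40 above and 1 below (median 0.20). Circadian clock genes had a median of -0.33 over 17, and Per1 was its member with the smallest p. Among 26 immediate-early and dissociation-stress genes 5 were below and 1 above in every animal, with Klf4 at 19.4, 12.7 and 19.8 CPM against 3.51, 5.52, 3.47 and 1.39 CPM (-2.32, adjusted p = 0.17). Their summed level was 4633 to 5319 CPM in germ-free and 3859 to 4875 CPM in acetate libraries, and its part in other results was not tested. Of 18 microglial transcription factors, Irf8 (0.39, adjusted p = 0.20) and Cebpb (-0.81, adjusted p = 0.45) lay on opposite sides. App was at 195, 198 and 218 CPM against 190, 192, 255 and 209 CPM (0.06, SE 0.12), and the amyloid precursor and secretase list had a median of -0.05 over 13 genes. Medians were 0.16 for TGF-beta and ALK1 signalling, 0.23 for proliferation and 0.12 for both sterol synthesis and LXR targets.

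**Figure D5:**
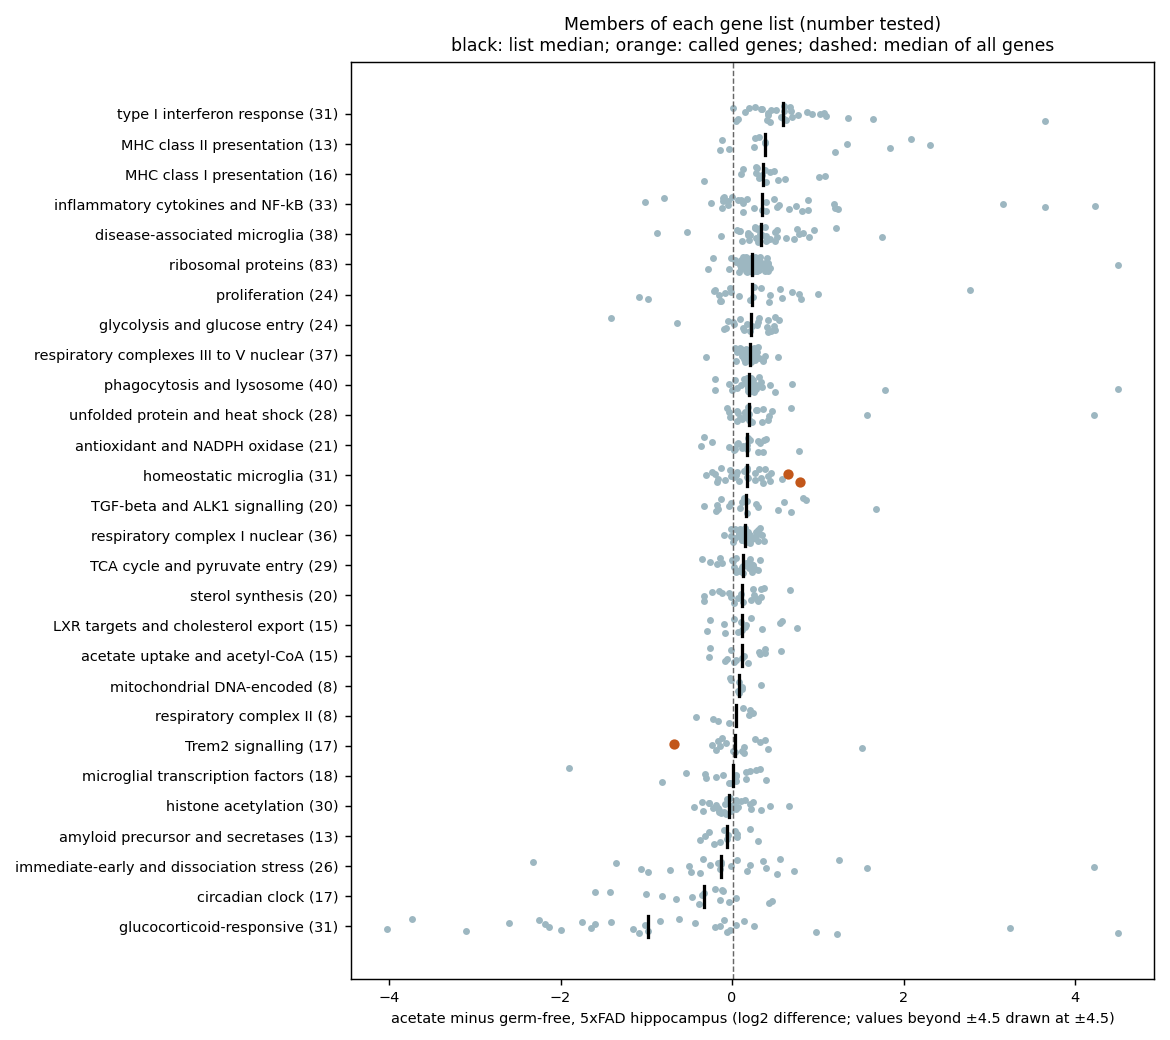
Log2 difference, acetate minus germ-free, of each member (small points) of 28 gene lists in 5xFAD hippocampal microglia, with the list median as a black bar, called genes in orange and the median of all genes as a dashed line. The glucocorticoid-responsive list has the lowest median (-0.97) and the interferon list the highest (0.59), only 2 homeostatic genes and Pik3r1 are called in the 22-library fit, and values beyond the axis are drawn at its edge. Some members of the glucocorticoid-responsive list were put in after earlier results of these data.

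Markers of other cells and library measures were set beside these results. Slc1a3, a glutamate transporter on the astrocyte list, stood at 472, 474 and 474 CPM in germ-free and at 267, 279, 341 and 220 CPM in acetate libraries (log2 difference -0.77, SE 0.17, adjusted p = 0.072). It was called lower in the 7-library edgeR fit (adjusted p = 0.016) and in a fit on the 11 5xFAD libraries (0.020), while Gfap was at most 1.24 CPM and Slc1a2 at most 0.60 CPM in the 7 libraries. Oligodendrocyte markers summed to 142 to 151 CPM in germ-free and 151 to 177 CPM in acetate libraries. Mitochondrially encoded genes took 0.329% to 0.387% of counts in germ-free and 0.296% to 0.393% in acetate libraries, and ribosomal protein genes 0.573% to 0.675% and 0.625% to 0.815%. In 5 bins of exonic length, from short to long, the median log2 differences of all genes were 0.04, 0.09, 0.05, 0.002 and -0.07. The called genes had median lengths of 7531 bases (lower) and 6161 bases (higher), where all genes had 3523 bases, and the part of length was not tested. In bulk RNA, fewer cells of a kind and less RNA per cell cannot be told apart.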

How the data were processed

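Raw counts of reads per gene were deposited by the authors in 1 table for cortex and hippocampus with 53546 genes, and per the submitters' processing notes were made with STAR 2.5.2b and featureCounts 1.5.1 on build GRCh38, a human build, although the symbols are those of mouse; no coordinates come from it. No header names the annotation, and the counting strand is not given in the sources used here. Columns were matched to samples by title, and 0 were left without one.

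The 22 hippocampus libraries were fitted in edgeR 4.0.16 (R 4.3.3): filterByExpr with a minimum count of 10, which left 17063 genes, TMM scaling, robust quasi-likelihood dispersions, 1 term per group, two-sided tests and Benjamini-Hochberg adjustment. SE is the log2 difference divided by the square root of F. Members and lists were chosen with earlier results of these data known. Named genes are up to 12 called per direction by size and 8 by p, the 5 with the smallest p where fewer were called, up to 4 called from each list, and a set always named; Thy1, one of these, did not pass the filter. Other list members named here were chosen after their values were seen. Lists are described by counts and medians, without a set test. Nothing says whether the animals shared litters or cages, so p-values measure the spread between these samples only. Replicate pairs differed beyond sampling (chi-square per degree of freedom 16.3 to 26.6 over 9 pairs). Fits were tested on simulated data. Alternatives were DESeq2 1.42.0, limma 3.58.1 (voom with quality weights), RLE factors, other filters, smaller fits and libraries left out. Promoters come from RefSeq tables. Some genes that the rule names are not reported here.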

Additional observations from a re-analysis of the deposited data

Results flagged for a closer look

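Of 98 groups of 4 libraries checked, 6 had 1 library far from the other 3 by Dixon's ratio; chance flags about 1 in 20 groups. GFA_FAD_521 was high for Rnf169, at 74.8 CPM where the others were at 55.7 to 56.6 CPM, and still below the lowest germ-free value. The same library was low for Tyrobp, the Trem2 adaptor, at 1385 CPM where the others were at 1944 to 2031 CPM.

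In the SPF 5xFAD group, the shallow library SPF_FAD_2142 was high for Chka (88.0 CPM, others 71.0 to 73.2 CPM) and for Zbtb16 (11.5 CPM, others 1.48 to 2.98 CPM), and had the fewest genes detected (17419, others 19371 to 19745). The library labelled SPF_FAD_2152 was low for the receptor kinase Axl (16.6 CPM, others 201 to 215 CPM). In that library Apoe was at 441 CPM, where the other 3 had 3171 to 6305 CPM and SPF wild type 241 to 398 CPM.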

How the results depend on the processing

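In all, 14 of 14 called genes kept their sign under every setting run. Their groups did not overlap, so refits of the same counts could hardly change the sign, and nothing is read from this. The 5xFAD comparison (3 higher, 11 lower) gave 65 and 88 with DESeq2 and 56 and 129 with limma-voom. It gave 9 and 21 without a filter and 14 and 32 at a mean of at least 5 CPM. It gave 39 and 82 on the groups compared, 4 and 22 on the 11 5xFAD libraries, and 0 to 14 and 1 to 24 leaving 1 library out. Some fits were added once values were seen: without GFA_WT_518 and GF_WT_530 (13 and 36), without SPF_FAD_2152 (5 higher), without the shallow libraries (8 higher) and without all 5 (22 and 42). Wild type (39 and 45) gave 218 and 180 with DESeq2, 75 lower at 5 CPM, 0 and 0 on the groups compared, 80 and 77 without all 5, and 13 to 62 and 11 to 68 leaving 1 out. The interaction (0 and 0) gave 1 and 5 with DESeq2 and 0 to 0 and 0 to 2 leaving 1 out. Germ-free against SPF (155 and 156) gave 294 and 335 with DESeq2, 331 and 270 with limma-voom, 100 lower on the groups compared, and 60 to 154 and 40 to 165 leaving 1 out. Acetate against SPF (8 and 1) gave 43 and 51 with DESeq2, 10 lower with limma-voom, 4 higher at 5 CPM, 1 higher on the groups compared, 2 and 0 without the shallow libraries, 3 higher without all 5, 2 lower without GFA_WT_518 and GF_WT_530, 3 lower without SPF_FAD_2152, and 1 to 8 and 0 to 4 leaving 1 out. The cause was not tested. No paired analysis was possible because the animals of both groups carry different numbers.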

Other observations

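In the fit on the 7 libraries alone, further genes outside the lists were called; those named here were chosen after their values were seen. Among the higher, the actin gene Actb averaged 4686 CPM in germ-free and 6509 CPM in acetate libraries (log2 difference 0.46, SE 0.07, adjusted p = 0.016 by edgeR's quasi-likelihood test), Actg1 99.1 and 150 CPM (0.58), Coro1a, a coronin, 489 and 651 CPM (0.40), and Cotl1 278 and 414 CPM (0.56). Aif1, the microglial protein IBA1, averaged 357 and 502 CPM (0.48, adjusted p = 0.044). Among the lower, Notch4 averaged 167 and 61.2 CPM (-1.47, adjusted p = 0.026), the beta-adrenergic receptor Adrb1 145 and 76.6 CPM (-0.93, adjusted p = 0.037), and Sorl1, an endosomal sorting receptor, 219 and 134 CPM (-0.72, adjusted p = 0.026). Pnpla2, the main triglyceride lipase, averaged 188 and 109 CPM (-0.80, adjusted p = 0.016). None of these passed in the fit on all 22 libraries.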
